A study of Homo sapiens with 12 samples.

Results

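The miR-193 and miR-365 family comprises the microRNAs made from MIR193A, MIR193B, MIR365A and MIR365B, which lie in 2 pairs on chromosomes 17 and 16. Its members were taken by name from a table of 2588 mature human miRNAs, and 6 names were listed: hsa-miR-193a-3p, hsa-miR-193a-5p, hsa-miR-193b-3p, hsa-miR-193b-5p, hsa-miR-365a-3p and hsa-miR-365b-3p. The last 2 have the same mature sequence and the same counts in every library, so they are given once, as miR-365-3p, which leaves 5 distinct members. Small RNA was sequenced from the triple-negative human breast cancer line MDA-MB-231, both from its cells and from extracellular vesicles (EVs) shed into the medium. The 12 libraries fall into 6 groups of 2 replicates: EVs and cells of a line carrying a lentiviral short hairpin RNA against RAB27A, EVs and cells of a line in which CRISPR-Cas9 with a pair of guide RNAs knocked out miR-122, and EVs and cells of a control line carrying an empty vector. RAB27A encodes a GTPase with a role in exosome release, where multivesicular bodies dock with the cell surface, and miR-122 is best known as the abundant microRNA of liver. All 3 lines were grown with 10% fetal bovine serum and then kept for 24 h in medium free of serum but with 1% bovine serum albumin, from which EVs were pelleted by ultracentrifugation. The control carries the empty vector of the hairpin system. Whether the knockout line carries that vector, and whether it is a single clone, is not given in the labels.

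A microRNA hairpin is cut into a 5p and a 3p arm, either of which can be loaded into an Argonaute protein. The loaded arm represses messenger RNAs that pair with its seed. miR-193b and miR-193a share the seed of their 3p arm, and miR-193b is known in breast cancer cells as a repressor of PLAU, the urokinase-type plasminogen activator. In mice the cluster of miR-193b and miR-365 has been studied for a possible part in brown fat differentiation.

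The mature sequences show why the 3p arms belong together and how the copies differ. They are RefSeq entries of GRCh38.p14, written 5′ to 3′ with the seed, bases 2 to 8, in capitals. Both 5p arms of miR-365 are shown because, unlike the shared 3p arm, they can be assigned to a locus.
hsa-miR-193a-3p: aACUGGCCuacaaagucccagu
hsa-miR-193b-3p: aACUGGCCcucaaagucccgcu
hsa-miR-193a-5p: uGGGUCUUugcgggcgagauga
hsa-miR-193b-5p: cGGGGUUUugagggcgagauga
hsa-miR-365a-3p: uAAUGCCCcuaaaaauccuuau
hsa-miR-365b-3p: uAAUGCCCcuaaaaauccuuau
hsa-miR-365a-5p: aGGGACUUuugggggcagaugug
hsa-miR-365b-5p: aGGGACUUucaggggcagcugu
The 3p arms of miR-193a and miR-193b are identical at 18 of 22 bases, and the 4 differences, counted from 1 at the 5′ end of miR-193a-3p, are U9C, A10U, A20G and G21C, all outside the seed. The 5p arms are also identical at 18 of 22 bases, but 2 of their differences lie within the seed: U1C, U5G, C6U and C11A. How reads matching several miRNAs were assigned is not given in the sources used here, so reads with mismatches could be split between the close arms. miR-365-3p cannot be assigned to either of its loci.

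The hairpins show where each arm sits in its precursor, with the 5p and then the 3p arm in capitals.
MIR193B: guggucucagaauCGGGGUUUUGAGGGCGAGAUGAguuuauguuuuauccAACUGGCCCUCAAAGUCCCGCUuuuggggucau
MIR365A: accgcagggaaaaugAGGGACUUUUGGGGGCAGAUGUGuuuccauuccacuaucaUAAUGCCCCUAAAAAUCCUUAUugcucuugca
MIR193A: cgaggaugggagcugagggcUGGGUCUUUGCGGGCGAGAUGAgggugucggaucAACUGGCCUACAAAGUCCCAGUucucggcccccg
MIR365B: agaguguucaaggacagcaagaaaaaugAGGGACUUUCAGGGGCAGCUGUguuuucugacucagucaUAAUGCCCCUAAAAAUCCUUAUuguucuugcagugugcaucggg
MIR193B lies at chr16:14303967-14304049 and MIR365A at chr16:14309285-14309371, both on the plus strand of GRCh38.p14, with 5235 bases between them. In GENCODE v29 both lie inside MIR193BHG, a long intergenic noncoding RNA gene, and overlap none of its exons. MIR193A lies at chr17:31559996-31560083 and MIR365B at chr17:31575411-31575521, also on the plus strand, with 15327 bases between them. MIR365B lies inside the noncoding gene AC003101.1 and shares 11 bases with an exon of it, whereas MIR193A overlaps no other annotated gene.

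Library totals ran from 164656 and 170366 counts in RAB27A knockdown EVs to 11840597 and 11066570 in control cells, and the family held 48 to 2940 counts per library. A single count was worth 6.07 and 5.87 CPM, counts scaled to a library total of 1000000, in the knockdown EVs, and the family is measured coarsely there. miR-122-5p, the product of the targeted gene, had 7 and 5 counts (42.5 and 29.3 CPM) in knockdown EVs and 4 and 3 counts (1.07 and 0.947 CPM) in knockout EVs, against 790 and 651 counts (331 and 251 CPM) in control EVs, so it was below the control in EVs of both lines. In cells it had 39 and 40 counts (12.3 and 12.7 CPM) in the knockdown line and 0 and 0 in the knockout line. Control cells had 5 and 4 counts (0.422 and 0.361 CPM), so it was above the control in knockdown cells. The level of RAB27A, a protein-coding gene, was not measured by these libraries. The 5 miRNAs known to be high in MDA-MB-231 cells summed to group means of 492511 to 701375 CPM, and the 5 of the miR-200 family, an epithelial list, to 136 to 421 CPM. A liver list of 3, miR-122-5p among them, summed to 200 CPM (knockout cells) to 727 CPM (knockdown EVs). Replicates differed by more than counting noise in every group. The chi-square per degree of freedom was 211 in the knockout cells and 8.75 to 31.8 in the other groups. The labels do not say whether replicates came from separate cultures. P-values therefore rest on the spread between libraries within groups, estimated over all groups fitted together and not only those compared. That spread may be technical.

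miR-365-3p was the most abundant member in 5 of the 6 groups by mean, and miR-193b-3p led in the knockout cells. The family summed to 298 and 282 CPM in knockdown EVs, 164 and 150 CPM in knockout EVs and 143 and 137 CPM in control EVs. In cells it summed to 121 and 91.4 CPM in the knockdown line, 207 and 299 CPM in the knockout line and 154 and 120 CPM in the control line. The sum in knockout cells lay above that of both other lines, and the ranges of knockdown and control cells overlapped at their edges. miR-365-3p made up 67.2% ± 0.393 of the family's counts in knockdown cells, 31.0% ± 2.04 in knockout cells and 62.8% ± 5.94 in control cells (SD, n = 2 each). Its share in EVs was 59.8% ± 0.872 for the knockdown line, 51.2% ± 6.20 for the knockout line and 44.1% ± 0.933 for the control line (SD, n = 2 each). These shares depend on no scaling between libraries, and that of the knockout cells lay below every other library. They do carry any effect of base composition: between knockout and control cells fold changes rose with GC content, which is low in miR-365-3p, and after GC correction the log2 fold changes given below were 1.58 for miR-365-3p and 2.65 for miR-193b-3p, against 0.18 and 2.88 without it. miR-193b-3p held 37.2% ± 8.92 of the family in knockout cells, against 11.9% ± 0.115 in control cells (SD, n = 2 each).

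**Figure D1:**
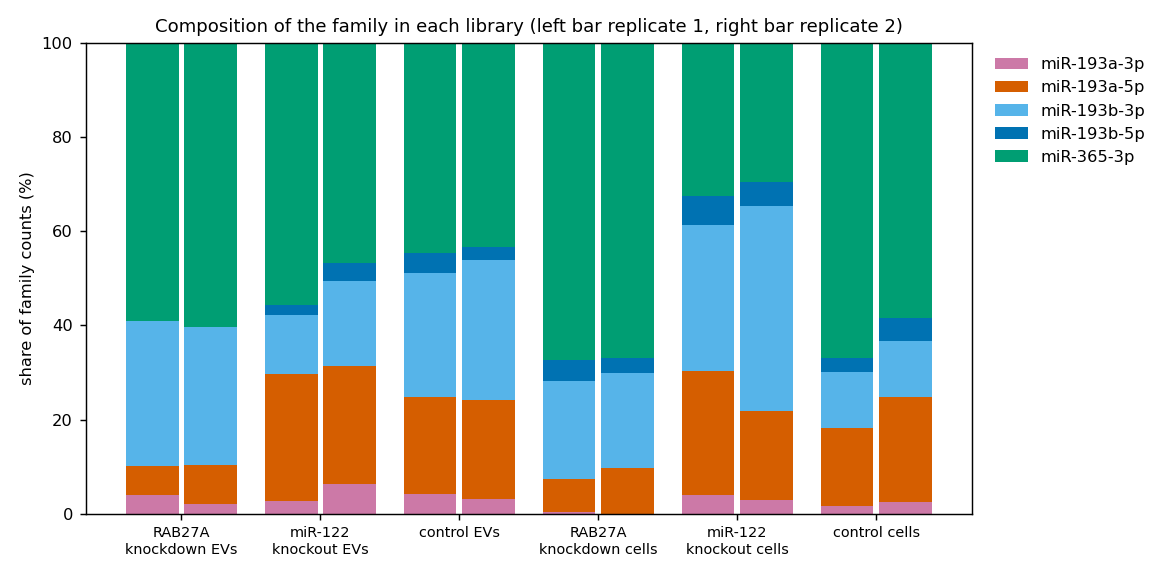
Share of the family's counts (percent) held by each of the 5 members in every library, EVs and cells of the 3 lines, with 1 bar per replicate. miR-365-3p fills most of each bar in knockdown and control cells, with mean shares of 67.2% and 62.8%. In the knockout cells its share is 31.0%, and miR-193b-3p reaches 37.2%. These shares are not corrected for GC content, and with that correction miR-365-3p was called higher in knockout than in control cells (log2 fold change 1.58).

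**Figure D2:**
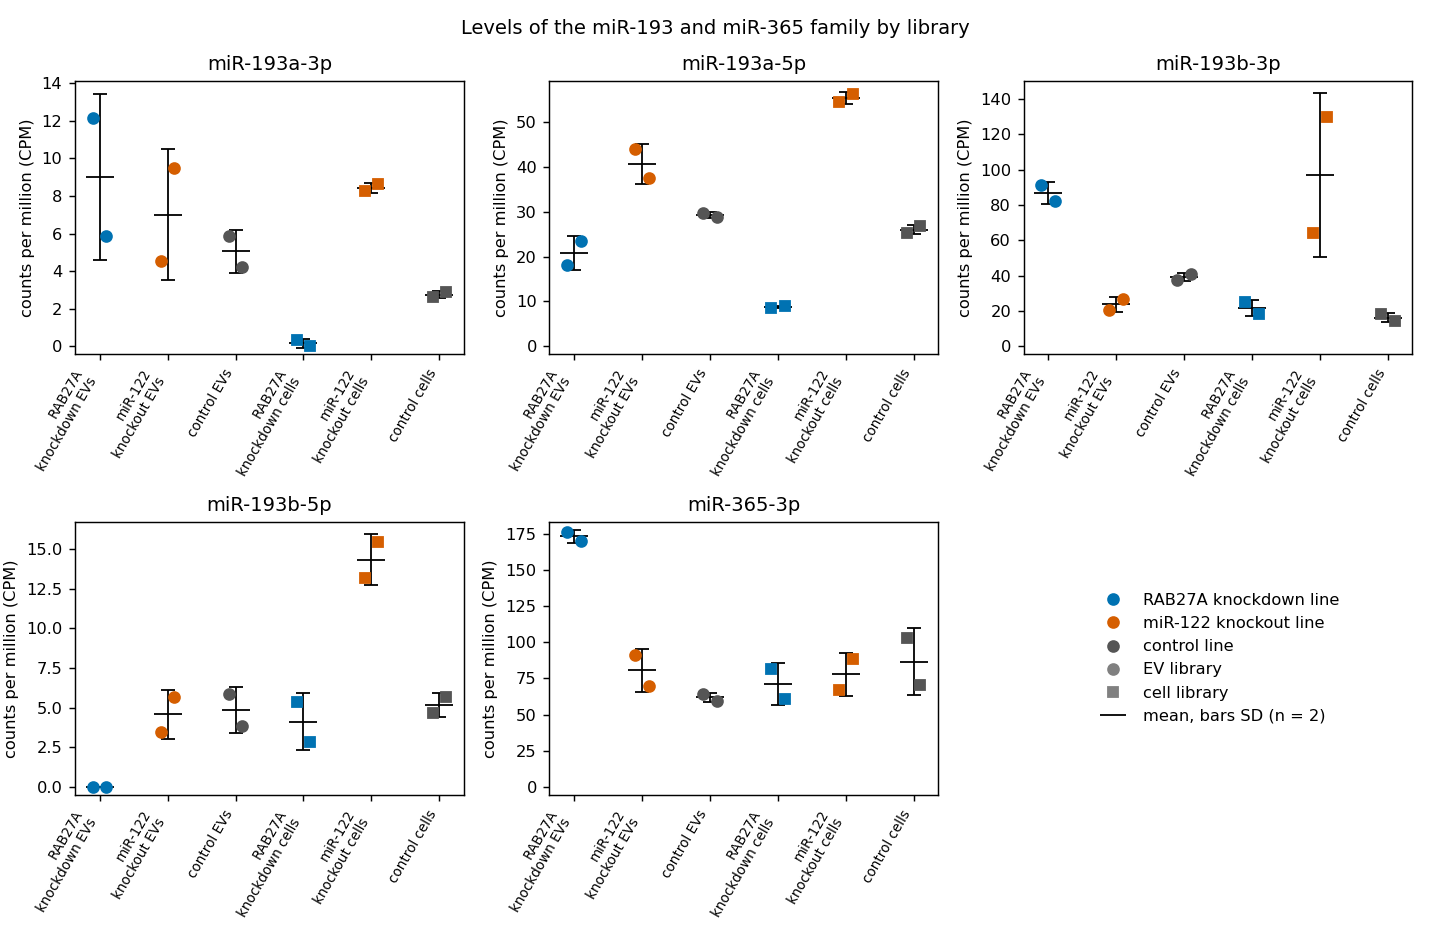
Level of each member (CPM, linear axes whose ranges differ between panels) in the 6 groups, with a point per library, a line at the group mean and bars of 1 SD (n = 2). The knockout cells are the highest or overlap the highest group for the 4 miR-193 arms, whereas miR-365-3p is highest in the knockdown EVs, at 176 and 170 CPM.

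Cells of the miR-122 knockout line were compared with control cells, which themselves had only 0.422 and 0.361 CPM of miR-122-5p. All 4 miR-193 arms were higher in knockout cells, by 2.70-fold to 7.36-fold, while miR-365-3p did not pass the test. Of the 613 miRNAs tested, 62.3% passed in either direction (adjusted p under 0.05, edgeR's quasi-likelihood test with Benjamini-Hochberg adjustment), and 4 of the 5 members did.

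miR-193b-3p, the arm known to repress PLAU, stood at 64.0 and 130 CPM in knockout cells, against 18.2 and 14.4 CPM in control cells. The groups did not overlap, although the knockout replicates lay far apart. Its log2 fold change was 2.88 (SE 0.22, adjusted p = 7.7e-10), and over all 20 alternative analyses, which include leaving out either knockout replicate, it stayed between 2.43 and 3.13. Its partner arm miR-193b-5p had 13.2 and 15.5 CPM in knockout cells, against 4.65 and 5.69 CPM in control cells, a log2 fold change of 1.80 (SE 0.24, adjusted p = 2.19e-06).

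miR-193a-5p, the more abundant arm of MIR193A, had 54.6 and 56.4 CPM in knockout cells, against 25.3 and 26.7 CPM in control cells. Its log2 fold change was 1.43 (SE 0.16, adjusted p = 1.85e-07). miR-193a-3p, which carries the seed shared with miR-193b-3p, had 8.26 and 8.64 CPM in knockout cells, against 2.62 and 2.89 CPM in control cells, and its log2 fold change was 1.95 (SE 0.28, adjusted p = 4.2e-06). The groups did not overlap for either arm, nor for miR-193b-5p.

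miR-365-3p had 67.3 and 88.3 CPM in knockout cells, against 103 and 70.2 CPM in control cells, and the groups overlapped. Its log2 fold change of 0.18 (SE 0.17, adjusted p = 0.385) depended on the processing: it was -0.15 when scaled by total counts and 1.58 (adjusted p = 3.83e-06) after correction for GC content. In this comparison fold changes rose with GC content across 535 miRNAs (Spearman correlation 0.45, across miRNAs, which are not independent). GC content is 31.8% in miR-365-3p, 50% in miR-193a-3p and 59.1% in the other miR-193 arms. The same correction left the log2 fold changes of the miR-193 arms at 1.98 for miR-193a-3p, 1.19 for miR-193a-5p, 2.65 for miR-193b-3p and 1.56 for miR-193b-5p, and all 4 still passed.

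The 5p arms of miR-365 show both loci separately. miR-365a-5p, from the locus beside MIR193B, had 33 and 21 counts in knockout cells, against 8 and 8 in control cells, and was higher (log2 fold change 2.27, SE 0.44, adjusted p = 0.000138). miR-365b-5p, from the locus beside MIR193A, had 30 and 27 counts in knockout cells, against 21 and 25 in control cells. Its log2 fold change of 0.84 (adjusted p = 0.0327) missed the threshold in 11 of 20 alternative analyses. Both arms of miR-4725, listed as further neighbours, had at most 5 counts in any library and were not tested.

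Knockdown of RAB27A was compared with the same control cells, so the 2 comparisons are not independent. In knockdown cells both arms of miR-193a were lower, whereas neither arm of miR-193b nor miR-365-3p passed the test. Of the 613 miRNAs, 53.8% passed in either direction, with 181 lower, and 2 of the 5 members did, both lower. miR-193a-5p had 8.55 and 8.92 CPM in knockdown cells, against 25.3 and 26.7 CPM in control cells, with no overlap (log2 fold change -1.56, SE 0.22, adjusted p = 3.99e-06). miR-193a-3p had 1 and 0 counts in knockdown cells, against 31 and 32 in control cells. On pooled counts it was 17.3-fold lower in knockdown cells, with an exact 95% counting interval of 2.999 to 695, and it passed the test (adjusted p = 0.000478). Both calls held in all 20 alternatives.

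miR-193b-3p had 25.004 and 18.5 CPM in knockdown cells, against 18.2 and 14.4 CPM in control cells. Its groups were apart by less than the spread of the knockdown pair, and the log2 fold change was 0.43 (SE 0.26, adjusted p = 0.164). It passed in 3 alternatives, those fitted without the knockout cells or without either of their replicates (adjusted p 0.024 to 0.0337). miR-193b-5p had 5.38 and 2.87 CPM in knockdown cells, against 4.65 and 5.69 CPM in control cells (a log2 fold change of -0.31, SE 0.35, adjusted p = 0.501). miR-365-3p had 81.3 and 61.1 CPM in knockdown cells, against 103 and 70.2 CPM in control cells (a log2 fold change of -0.26, SE 0.18, adjusted p = 0.247). For the last 2 the groups overlapped. Without the filter on low counts miR-365-3p was called lower (-0.49, adjusted p = 0.0114), and after GC correction its log2 fold change was 0.035 (adjusted p = 0.894).

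The 5p arms of miR-365 were near the detection limit in this line. miR-365b-5p, the neighbour of MIR193A, had 1 and 2 counts in knockdown cells, against 21 and 25 in control cells, and was 4.22-fold lower on pooled counts (exact 95% counting interval 1.36 to 21.2, adjusted p = 0.0167). That call was lost with DESeq2 and without control replicate 2 or either knockdown replicate. miR-365a-5p, the neighbour of MIR193B, had 1 and 2 counts in knockdown cells, against 8 and 8 in control cells, 1.47-fold lower with an interval of 0.42 to 7.86, which spans no difference. Whether the loci of chromosomes 17 and 16 differed in their response was not tested.

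Between the manipulated lines, all 5 members were higher in knockout than in knockdown cells. There 64.4% of the 613 miRNAs passed in either direction, with 188 higher. miR-193a-3p had 84 and 85 counts in knockout cells, against 1 and 0 in knockdown cells, 53.2-fold higher on pooled counts (exact 95% counting interval 9.42 to 2114). The log2 fold change was 2.996 (SE 0.21) for miR-193a-5p, 2.45 (SE 0.24) for miR-193b-3p and 2.11 (SE 0.32) for miR-193b-5p. That of miR-365-3p was 0.44 (SE 0.19, adjusted p = 0.0436), its ranges overlapped, and the call was lost in 8 of 20 alternatives.

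**Figure D3:**
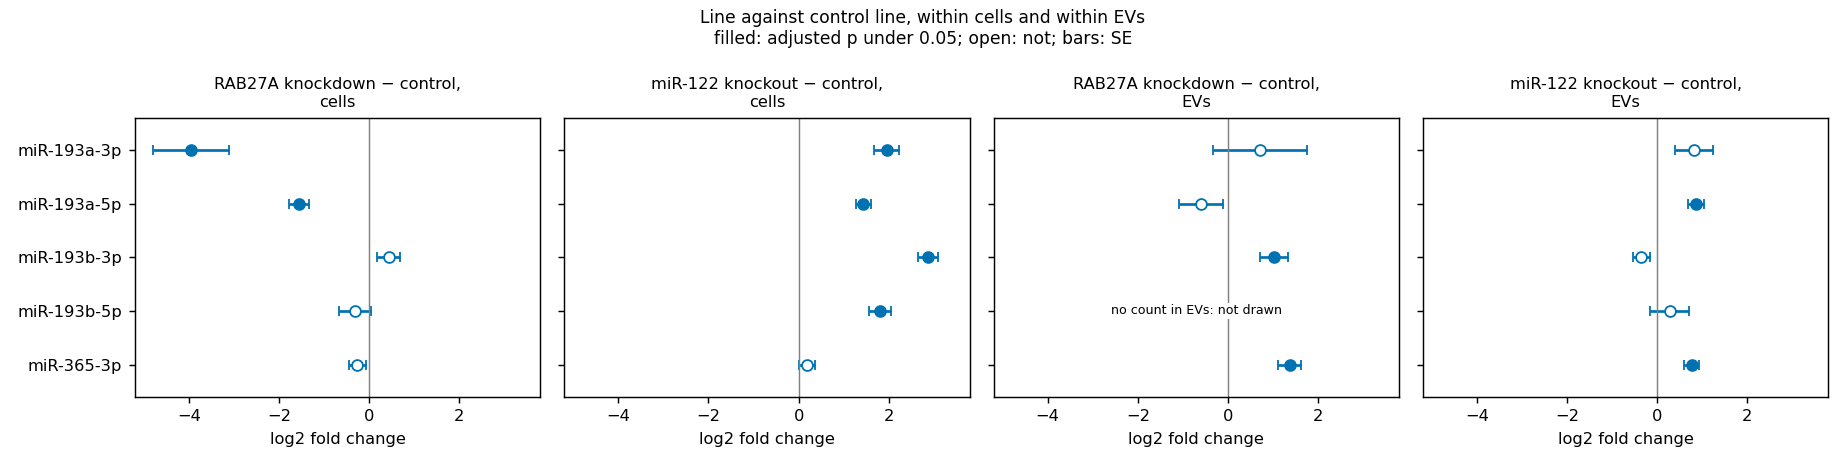
Log2 fold change of each member in the knockdown and knockout lines over the control line, in cells and in EVs, from edgeR's quasi-likelihood fits, with bars of 1 SE and filled points where the adjusted p is under 0.05. In cells the 4 miR-193 arms lie right of 0 in the knockout line and both miR-193a arms lie left of 0 in the knockdown line. The point of miR-193a-3p in knockdown cells rests on 1 count, and miR-193b-5p is not drawn where a group had none.

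EVs of the 3 lines were compared in the same way, on 488 miRNAs. Here the miR-193 arms did not move as a group: in knockout EVs only miR-193a-5p and miR-365-3p passed the test, both higher, and in knockdown EVs only miR-193b-3p and miR-365-3p did, both higher. Background calls in either direction were 41.2% for the knockout and 46.3% for the knockdown, so 2 of 5 members is close to the share among all miRNAs in each. Of the 488 miRNAs, 92 were called higher in each comparison.

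A list of 8 blood-cell and serum miRNAs summed to 170 to 252 CPM in knockdown EVs and 147 to 217 CPM in knockout EVs, against 9867 to 11503 CPM in control EVs, and 8 of 8 were lower in each line than in the control. In the knockdown EVs miR-144-5p, miR-223-3p and miR-150-5p of that list were at 0. A stroma list of 6 summed to 112 to 128 CPM in knockdown EVs and 28.1 to 42.6 CPM in knockout EVs, against 3486 to 3617 CPM in control EVs, and 6 of 6 were lower in each, with miR-145-5p, miR-199a-3p and miR-214-3p at 0 in the knockdown EVs. Their part in the EV results was not tested.

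miR-365-3p had 176 and 170 CPM in knockdown EVs, 91.1 and 70.1 CPM in knockout EVs and 64.1 and 59.7 CPM in control EVs, and none of the 3 groups overlapped. Against control EVs its log2 fold change was 1.37 (SE 0.26, adjusted p = 0.00077) in knockdown EVs, a call kept in all 20 alternatives, although it rests on 29 counts in each knockdown library. In knockout EVs it was 0.76 (SE 0.17, adjusted p = 0.00215), and this call was lost with total-count scaling (0.39, adjusted p = 0.0621) and without control replicate 2 (0.60, adjusted p = 0.0753). After GC correction the log2 fold changes were 2.16 in knockdown EVs and 1.00 in knockout EVs.

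miR-193b-3p had 91.1 and 82.2 CPM in knockdown EVs, from 15 and 14 counts, against 37.7 and 40.8 CPM in control EVs. The ranges did not overlap, and the log2 fold change was 1.02 (SE 0.31, adjusted p = 0.015), but the call was lost when any 1 of these 4 libraries was left out and without the filter on low counts (adjusted p 0.0514 to 0.166). In knockout EVs it had 20.8 and 26.8 CPM, below the 37.7 and 40.8 CPM of control EVs without overlap. Its log2 fold change there was -0.35 (SE 0.18, adjusted p = 0.148), and it passed at -0.73 with total-count scaling, at -0.51 after GC correction, without or with the replicate block, and at -0.54 without knockdown EV replicate 2.

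miR-193a-5p had 43.9 and 37.6 CPM in knockout EVs, against 29.7 and 28.9 CPM in control EVs, without overlap (log2 fold change 0.86, SE 0.17, adjusted p = 0.00144, kept in all 20 alternatives). In knockdown EVs it had 3 and 4 counts, 18.2 and 23.5 CPM, with a log2 fold change of -0.60 (SE 0.48, adjusted p = 0.345). miR-193a-3p had 2 and 1 counts in knockdown EVs and 17 and 30 in knockout EVs, against 14 and 11 in control EVs, and passed in neither comparison (adjusted p = 0.616 and 0.155), although it passed for the knockout without knockout EV replicate 1 (log2 fold change 1.26, adjusted p = 0.0219). On pooled counts it was 1.79-fold higher in knockdown than in control EVs with a counting interval of 0.345 to 5.85. miR-193b-5p had no count in either knockdown EV library, which allows up to 8.95 CPM over the group and covers the 5.86 and 3.85 CPM of control EVs. In knockout EVs it had 3.46 and 5.68 CPM (log2 fold change 0.27, SE 0.44, adjusted p = 0.673).

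Between the EVs of the manipulated lines, 40.4% of the miRNAs passed, and so did miR-193a-5p (log2 fold change of knockout over knockdown 1.46, SE 0.44, adjusted p = 0.0163) and miR-193b-3p (-1.38, SE 0.32, adjusted p = 0.00328). The miR-193a-5p call was lost with total counts, with GC correction and without either knockdown EV replicate. The miR-193b-3p call was lost without knockdown EV replicate 1. miR-365-3p was at -0.60 (SE 0.24, adjusted p = 0.0672) and passed in 6 of 20 alternatives, among them GC correction at -1.16.

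EVs were then set against the cells of the same line, in a fit over all 12 libraries and 574 miRNAs. The members did not share a direction across lines: miR-193b-3p was higher in EVs than in cells in the knockdown and control lines and lower in the knockout line. In the knockout line 3 of 5 members were lower in EVs, and 59.1% of all 574 miRNAs passed in either direction, with 148 lower. In the control line 1 member was higher and 1 lower, with 53.7% of all miRNAs passing. In the knockdown line 3 members were higher in EVs, against 19.3% of all miRNAs in either direction, but those calls rest on few counts. The blood-cell list was called higher in EVs for 8 of 8 miRNAs in the control line and 7 of 8 in the knockout line. In the knockdown line 0 of 8 were called, although the list summed to 170 to 252 CPM in EVs, against 110 to 112 CPM in cells. The part of this list in these results was not tested. Fewer vesicles and less of a miRNA per vesicle cannot be told apart in such libraries, nor can fewer cells and less RNA per cell.

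miR-193b-3p had 20.8 and 26.8 CPM in knockout EVs, against 64.0 and 130 CPM in knockout cells (a log2 fold change of -2.21, SE 0.23, adjusted p = 1.63e-10). In the control line it had 37.7 and 40.8 CPM in EVs, against 18.2 and 14.4 CPM in cells (1.13, SE 0.24, adjusted p = 0.000119). Both calls held in all 20 alternatives, and neither pair of groups overlapped. In the knockdown line it had 91.1 and 82.2 CPM in EVs, against 25.004 and 18.5 CPM in cells (1.52, SE 0.42, adjusted p = 0.00715), a call lost without either EV replicate (adjusted p = 0.257 and 0.129).

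miR-193b-5p had 3.46 and 5.68 CPM in knockout EVs, against 13.2 and 15.5 CPM in knockout cells (a log2 fold change of -1.87, SE 0.32, adjusted p = 1.66e-06). miR-193a-5p had 43.9 and 37.6 CPM in knockout EVs, against 54.6 and 56.4 CPM in knockout cells (-0.65, SE 0.17, adjusted p = 0.000981). Neither pair of groups overlapped. In the control line neither 5p arm passed, with log2 fold changes of -0.24 for miR-193b-5p and 0.03 for miR-193a-5p.

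miR-365-3p had 64.1 and 59.7 CPM in control EVs, against 103 and 70.2 CPM in control cells (a log2 fold change of -0.63, SE 0.18, adjusted p = 0.00249). The groups did not overlap, and the call was lost without control cell replicate 1 (-0.35, adjusted p = 0.197). In the knockdown line it had 176 and 170 CPM in EVs, against 81.3 and 61.1 CPM in cells (0.80, SE 0.26, adjusted p = 0.0225), a call lost in 5 alternatives: without the filter, in a fit of the compared groups alone, without knockdown cell replicate 2 and without either EV replicate. In the knockout line its ranges overlapped and its log2 fold change was -0.15 (SE 0.17, adjusted p = 0.487), against -1.24 (adjusted p = 3.99e-09) after GC correction and -0.51 (adjusted p = 0.0197) without the filter. There fold changes fell with GC content across 506 miRNAs (Spearman correlation -0.37).

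miR-193a-3p had 2 and 1 counts in knockdown EVs, against 1 and 0 in knockdown cells, from libraries of very different totals. The ratio of pooled CPM, on library totals, was 56.4 with an exact 95% counting interval of 4.53 to 2962. The log2 fold change tested, on the scaling of the fit, was 5.14 (SE 1.56, adjusted p = 0.0128). It passed the test, though not without knockdown EV replicate 1 or knockdown cell replicate 2. In the fit of the compared groups alone, miR-193a-3p fell below the filter on low counts and was not tested. It did not pass in the knockout or the control line, where its log2 fold changes were -0.50 and 0.72. In the knockout line it passed without the filter (-0.88) and without knockout EV replicate 2 (-1.09).

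**Figure D4:**
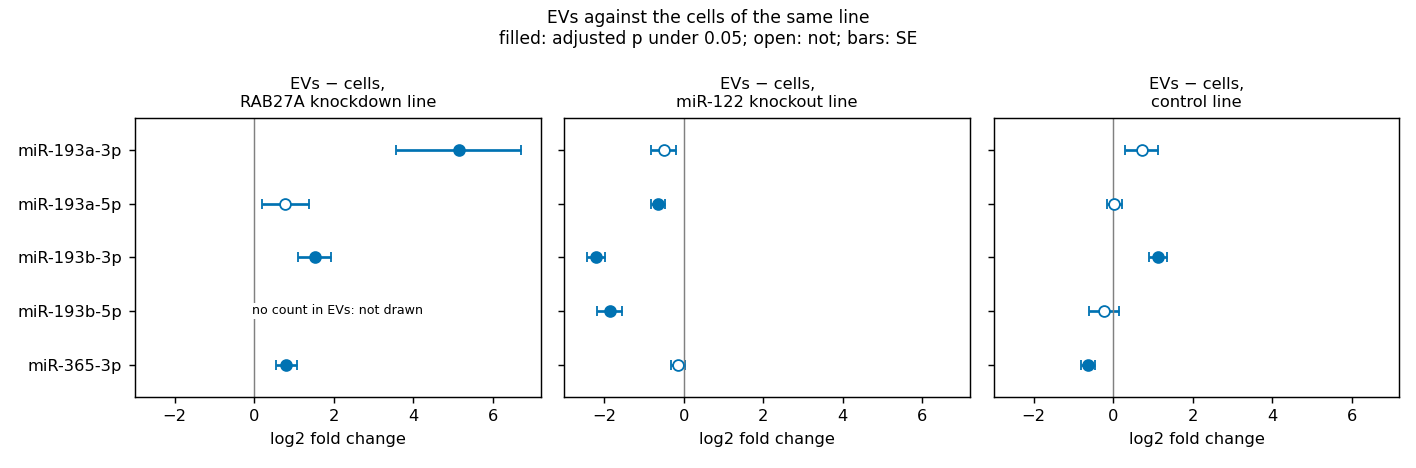
Log2 fold change of each member in EVs over the cells of the same line, 1 panel per line, with bars of 1 SE and filled points where the adjusted p is under 0.05. miR-193b-3p lies at 1.52 in the knockdown line, -2.21 in the knockout line and 1.13 in the control line, and the fitted point of miR-193a-3p in the knockdown line rests on 4 counts.

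Whether the EV difference itself differed between lines was tested as an interaction. For the knockout line against the control line, 48.3% of the 574 miRNAs passed in either direction, with 134 lower. Of the members 4 of 5 passed, all lower. The interaction of miR-193b-3p was -3.34 (SE 0.33, adjusted p = 1.11e-10), kept in all 20 alternatives at -3.64 to -2.67. That of miR-193b-5p was -1.63 (SE 0.52, adjusted p = 0.0079) and was lost without replicate 1 of either the control or the knockout EVs. Those of miR-193a-3p (-1.23, adjusted p = 0.0474) and miR-193a-5p (-0.68, adjusted p = 0.0246) were lost in 14 and 15 of 20 alternatives. miR-365-3p was at 0.48 (SE 0.25, adjusted p = 0.107), and at -0.43 (adjusted p = 0.144) after GC correction. It was called higher in 4 alternatives: in a fit of the compared groups alone (0.66, adjusted p = 0.0445), and without control cell replicate 2 (0.76, adjusted p = 0.0148), knockdown cell replicate 1 (0.67, adjusted p = 0.0304) or knockout cell replicate 2 (0.79, adjusted p = 0.00159).

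For the knockdown line against the control line, 18.6% of the 574 miRNAs passed in either direction, with 25 higher. miR-365-3p was called, at 1.43 (SE 0.32, adjusted p = 0.000528), and stayed called in all 20 alternatives at 1.14 to 1.95. miR-193a-3p was called at 4.41 (adjusted p = 0.0406), from 4 counts in the knockdown line, and was lost in 6 alternatives. The other 3 members did not pass. The interactions share the control libraries.

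Ratios between members within a library do not depend on its scaling. miR-365-3p over miR-193b-3p, which set the 2 chromosome 16 neighbours against each other as far as miR-365-3p comes from that locus, was 1.93 and 2.07 in EVs of the knockdown line, 4.38 and 2.61 in those of the knockout line and 1.70 and 1.46 in those of the control line. In cells it was 3.25 and 3.31 in the knockdown line, 1.05 and 0.679 in the knockout line and 5.67 and 4.89 in the control line. Of the 3 lines, the knockout line alone had a higher ratio in EVs than in cells. The ratio sets an arm of 31.8% GC against one of 59.1%, and is not free of the GC trend: GC correction left the log2 fold changes of knockout EVs over cells at -1.24 for miR-365-3p and -1.97 for miR-193b-3p, against -0.15 and -2.21 without it. A comparison of 2 against 2 libraries has no permutation p under 0.05, so lines were not tested.

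Over all 3 lines, EVs were set against cells for 4 such ratios by a two-sided exact permutation test within lines, whose smallest possible p is 0.00926. The 3p over 5p ratio of miR-193a was higher in EVs by 1.60 on the log2 scale, by mean in 3 of 3 lines (exact p = 0.0556, 0.0864 after adjustment over the 4 ratios). Its log2 means in EVs and cells were -1.04 and -5.01 in the knockdown line and -2.51 and -3.22 in the control line. In the knockout line they were -2.61 and -2.71, and the EV libraries (-3.24 and -1.97) lay on both sides of the cells (-2.72 and -2.70). The 3p over 5p ratio of miR-193b differed by 1.18 (exact p = 0.0556, adjusted 0.0864, 2 of 3 lines), where the knockdown EVs had no count of the 5p arm. miR-193a-3p over miR-193b-3p differed by 1.52 (exact p = 0.0648, adjusted 0.0864, 2 of 3 lines) and miR-365-3p over miR-193b-3p by -0.16 (exact p = 0.741). None passed after adjustment, and both ratios of miR-193a-3p include its single count in knockdown cells.

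**Figure D5:**
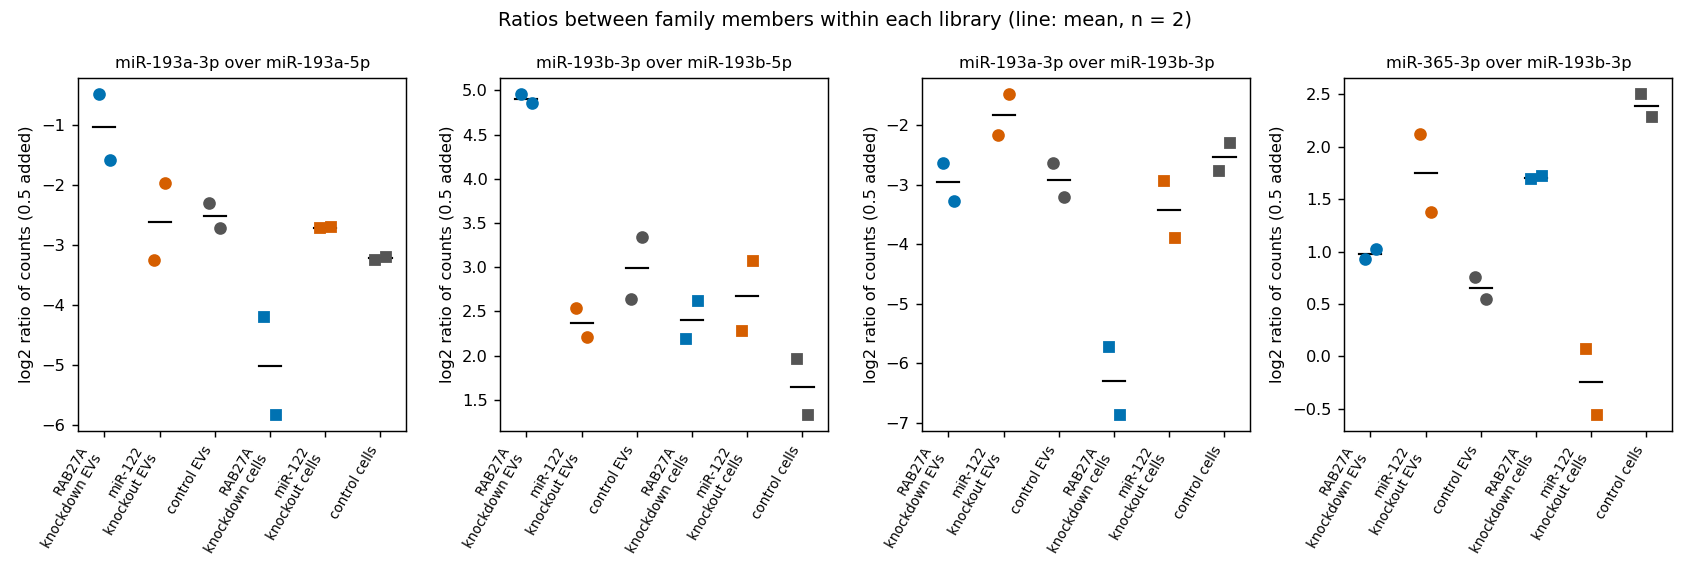
Log2 ratio of counts (0.5 added to each) between members in every library, 1 panel per ratio with its own axis range, points for libraries and a line at the mean of each group. The ratio of miR-365-3p to miR-193b-3p, not corrected for GC content, is lowest in the knockout cells, at 1.05 and 0.679 before the log, and the 3p over 5p ratio of miR-193a is lowest in the knockdown cells.

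The order of levels over the 6 groups differed between members. miR-193a-5p was highest in knockout cells (55.5 CPM ± 1.30), followed by knockout EVs (40.8 ± 4.50), control EVs (29.3 ± 0.604), control cells (26.0 ± 0.997), knockdown EVs (20.8 ± 3.72) and knockdown cells (8.73 ± 0.261; SD, n = 2 each), and no neighbours in this order overlapped. For miR-193b-3p the knockout cells (97.0 CPM ± 46.7) and knockdown EVs (86.6 ± 6.31) overlapped at the top, and control cells (16.3 ± 2.68) were lowest (SD, n = 2 each). For miR-365-3p only the knockdown EVs (173 CPM ± 4.17) stood clear of their neighbour, and the other 5 groups, at 61.9 to 86.5 CPM, overlapped in sequence. miR-193b-5p was highest in knockout cells (14.3 CPM ± 1.61), and the next 4 groups lay between 4.12 and 5.17 CPM.

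The miRNAs whose profile lay closest to a member were found as the smallest root mean square difference of centred log2(CPM + 1) means over the 6 groups, among 627 distinct miRNAs. miR-193a-5p lay closest to miR-345-5p (0.19), let-7b-5p (0.25) and miR-320e (0.35). miR-365-3p lay closest to miR-21-5p (0.24), miR-6513-5p (0.27) and miR-580-3p (0.29). miR-193b-5p lay closest to miR-30b-3p (0.28), miR-874-3p (0.29) and miR-1260a (0.36). The 3p arms of miR-193 had more distant neighbours: miR-4707-3p (0.48), miR-320a (0.50) and miR-326 (0.52) for miR-193b-3p, and miR-629-5p (0.39), miR-182-3p (0.44) and miR-320c (0.51) for miR-193a-3p. Members lay 0.60 (both arms of miR-193a) to 1.64 (miR-193a-3p and miR-193b-5p) from each other, so each had closer matches outside the family than within it. The 6 means share libraries and depth, and the knockdown EVs enter with few counts.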

How the data were processed

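Libraries were made by a 5′ monophosphate-dependent protocol from RNAs size-selected at 17 to 52 nt, per the labels' protocols. The authors deposited raw, unnormalized counts, 1 whole number per mature miRNA and library; cutadapt, Bowtie and build hg19 are named in the submitters' processing notes, without versions. Not given in the sources used here are the miRNA annotation and how reads matching more than 1 miRNA were handled.

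The family was tested within all miRNAs by edgeR's quasi-likelihood test (R 4.3.3 with edgeR 4.0.16 and limma 3.58.1; TMM factors, filterByExpr, Benjamini-Hochberg at 0.05), which gave every adjusted p except those of the 4 ratios. Lines were compared on the 6 libraries of cells (613 miRNAs) or of EVs (488), and EVs with cells on all 12 (574). Each SE is the log2 fold change divided by the square root of F. It is not a separately fitted error and can be too small at low counts. Means and SDs are of CPM on library totals. Intervals on counts are 95% exact intervals and, like the limit of 3 counts for a zero, cover counting error only. The code was tested on simulated counts with the same relative spread for every miRNA and library, whereas replicate spread here differed between groups. That test gives no rate of false calls for these data.

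Alternatives were RLE factors, total counts, no filter, DESeq2 1.42.0, a fit of the compared groups alone, a replicate block, a loess correction for the GC content of the mature sequence (known for 600 of 685 tested miRNAs), both together, and each library left out in turn. The text names all members, the other products of both clusters and the 3 closest profiles per member. Members, lists and tests were chosen with earlier results of these data known, so no list is independent evidence. Replicate numbers were not used to pair the samples, except in the replicate block.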

Additional observations from a re-analysis of the deposited data

Results flagged for a closer look

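In 6 cases the difference between EVs and cells differed between a line and the control line by the interaction test, all on the log2 scale. For the knockdown line the interaction was 4.41 for miR-193a-3p, whose levels there rest on 3 counts in EVs and 1 in cells, and 1.43 for miR-365-3p. For the knockout line it was -3.34 for miR-193b-3p, -1.63 for miR-193b-5p, -1.23 for miR-193a-3p and -0.68 for miR-193a-5p. Both lines were set against the same control libraries. No group was large enough to look for single libraries that stand apart.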

How the results depend on the processing

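Of 31 called results on members, 18 stayed called under all 20 alternatives and 0 changed direction. Without the filter on low counts, 1 member was called for knockdown against control EVs, 5 for EVs against cells in the knockout line, 1 for the knockdown interaction and 2 for the knockout interaction. Fitting the compared groups alone left 1 for EVs against cells in the knockdown line. Leaving out 1 library gave 1 to 2 called members for knockdown against control EVs, 1 to 3 for knockout against control EVs, 0 to 3 for knockout against knockdown EVs, 0 to 3 for EVs against cells in the knockdown line, 1 to 2 in the control line, 1 to 2 for the knockdown interaction and 1 to 3 for the knockout interaction. Over all miRNAs, the 330 calls for knockdown against control cells became 196 and 218 without knockdown replicate 1 and 2, and the 201 for knockout against control EVs became 127 without control replicate 2. The replicate block changed 0 member calls (4 of 5 remained for the knockout in cells and 2 of 5 for the knockdown). Deviations of same-numbered libraries correlated at -0.07 to 0.07 over 15 pairs of groups, so no shared effect of the replicate number was seen. Whether same-numbered libraries share a culture is not given in the labels. Total-count scaling moved the median log2 fold change of all miRNAs by -0.33 for the knockout in cells, -0.38 for knockout EVs and 0.47 between knockdown EVs and cells.

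Results that changed sign were all uncalled. For miR-365-3p in knockdown against control cells, GC correction gave 0.035 without and 0.044 with the replicate block, and leaving out 1 library -0.48 to 0.034. For miR-365-3p in knockout against control cells, total counts gave -0.15 and leaving out 1 library -0.068 to 0.36. In the knockout line's EVs over its cells, the values for miR-365-3p were 0.055 with total counts and -0.22 to 0.040 with 1 library left out, and its knockout interaction became -0.43 and -0.48 after GC correction without and with the block. For miR-193b-5p, leaving out 1 library gave -0.83 to 0.10 for the knockdown in cells, -0.115 to 0.59 for the knockout in EVs and -0.49 to 0.037 for control EVs over cells, and total counts gave -0.0998 for the knockout in EVs. For miR-193a-3p between knockout and knockdown EVs, total counts gave -0.39, GC correction -0.37 (-0.374 with the block) and leaving out 1 library -0.47 to 0.74, and in the knockout line's EVs over cells leaving out 1 library gave -1.09 to 0.086. For miR-193a-5p in control EVs over cells, no filter gave -0.34 and leaving out 1 library -0.18 to 0.094. The cause was not tested. Adding 1 to each count put the 3p over 5p ratio of miR-193a at 1.44 (exact permutation p = 0.037 before adjustment). Depth limits the knockdown EVs, with 48 and 49 family counts.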
